A study of Homo sapiens with 8 samples.

Results

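The genes examined here were grouped as scramblases and flippases of phosphatidylserine, though not all are known to move this lipid. They were 9 genes taken by symbol from the 62086 gene identifiers of the deposited tables, namely the scramblase genes XKR8, ANO6, PLSCR1 and PLSCR3, the P4-ATPase genes ATP8A1, ATP8B2, ATP11A and ATP11B, and the subunit gene TMEM30A. All 9 passed the filter on low counts, which left 20165 genes. The cells were BG01, a line of human embryonic stem cells (hESCs) grown without feeder cells. They were given 5 µg/mL of anti-M8nAb, an antibody that neutralizes the secreted protein MFG-E8, for 12 h or 24 h, and control cells were given 5 µg/mL of mouse IgG for the same times. Each of the 4 groups held 2 libraries, 8 in all, made from total RNA of 1 cell line. The labels call the libraries of a group biological replicates but do not say how the cultures were kept apart, so any p-value reflects how far these libraries spread, which may be technical in part.

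In a resting cell, phosphatidylserine is held on the inner leaflet of the plasma membrane by flippases, which are P4-ATPases that carry it inwards against its gradient and most of which need the subunit CDC50A, encoded by TMEM30A, to leave the endoplasmic reticulum. Scramblases let phospholipids cross in both directions and so bring phosphatidylserine to the cell surface, XKR8 after cleavage by caspases and ANO6 when calcium rises. Caspases also cut and inactivate flippases of the ATP11 group. MFG-E8, the target of the antibody, binds phosphatidylserine on exposed membranes and on vesicles, and links it to integrins. Transcript levels say nothing of cleavage, of calcium or of the lipid itself.

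The genes did not move as 1 group. The P4-ATPase genes were lower with anti-M8nAb, with all 4 past the test at 12 h and 3 of the 4 at 24 h, where 16.4% and 21.3% of all genes tested were called lower. ATP8A1 fell by 0.50 on the log2 scale at 12 h and by 0.74 at 24 h. Of the scramblase genes, XKR8 and PLSCR1 were higher at 24 h, by 0.35 and 0.42 on the log2 scale, as were 21.2% of all genes. ANO6, the most abundant scramblase transcript per length, and PLSCR3 did not pass the test at either time. TMEM30A was above its IgG level at 24 h by 0.17 on the log2 scale, with libraries that overlapped. None of the 9 genes reached a log2 fold change of 1 in size.

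Counts over genes were 21010400 to 21792716 per library, and replicates varied by 5.53% beyond counting error, as edgeR's common coefficient of biological variation. The 6 markers of pluripotent stem cells summed to 4955 to 4964 CPM (library counts brought to 1 size with TMM factors) with anti-M8nAb at 12 h, against 4342 to 4472 CPM with IgG, and to 4603 to 4611 CPM with anti-M8nAb at 24 h, against 4038 to 4047 CPM with IgG. Their members did not all move with the sum, as 5 of the 6 were higher at 12 h, while 3 were higher and 2 lower at 24 h. At 24 h POU5F1, LIN28A and DPPA4 were higher, and SOX2 and NANOG were lower. Among all genes tested, 15.8% were called higher and 16.4% lower at 12 h, and 21.2% and 21.3% at 24 h. The same shares stand beside the counts of the marker lists that follow. The fibroblast markers summed to 544 to 580 CPM with anti-M8nAb at 12 h, against 508 to 509 CPM with IgG, and to 654 to 678 CPM with anti-M8nAb at 24 h, against 576 to 596 CPM with IgG, with DCN and LUM below the filter. Of the 5 fibroblast markers tested, 1 was higher and 1 lower at each time. THY1 made up most of this sum and was the higher one. Its means with anti-M8nAb and IgG were 461 against 389 CPM at 12 h and 550 against 439 CPM at 24 h. COL1A2 was the lower one, with 33.9 against 51.4 CPM at 12 h and 31.2 against 66.5 CPM at 24 h. The sum thus follows THY1 and does not give the direction of each member. Markers of other lineages were low but moved with the treatment. Neuroectoderm markers summed to 4.1 to 4.32 CPM with anti-M8nAb at 12 h, against 0.968 to 1.79 CPM with IgG, with both tested markers higher, and to 1.32 to 1.8 CPM with anti-M8nAb at 24 h, against 1.2 to 1.23 CPM with IgG. Mesendoderm and endoderm markers summed to 3.04 to 4.49 CPM with anti-M8nAb at 12 h, against 2.49 to 3.5 CPM with IgG, and to 2.34 to 2.73 CPM with anti-M8nAb at 24 h, against 4.71 to 5.82 CPM with IgG. Of the 4 of these tested, 1 was higher at 12 h and 2 were lower at 24 h. Trophoblast and amnion markers summed to 16 to 16.3 CPM with anti-M8nAb at 12 h, against 18.5 to 20.2 CPM with IgG, and to 18 to 19.5 CPM with anti-M8nAb at 24 h, against 20.1 to 20.9 CPM with IgG. CDX2, TFAP2A and CGA were below the filter. Of the 2 tested, 1 was higher at each time and the other was lower at 12 h. The lower one, KRT7, made up most of this sum. GATA3 was the higher one, with log2 fold changes of 3.19 at 12 h and 2.91 at 24 h, but on 1 to 39 counts per library. The sum thus follows KRT7 and does not give the direction of GATA3. Processed pseudogenes took 0.299 and 0.474% of the counts in the anti-M8nAb libraries at 12 h and 0.214 to 0.24% in the other 6 libraries. The part of these marker and pseudogene values in the results below was not tested. When protein-coding genes were analysed alone, no called member was lost, XKR8 was added at 12 h, which gave 5 called, and ANO6 at 24 h, which gave 7.

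Levels between genes can be compared only per length, in FPKM. TMEM30A stood highest with a mean of 26.9 FPKM over the 8 libraries, followed by ANO6 with 15.5 FPKM and ATP8B2 with 6.64 FPKM, and these steps were larger than the spread, with TMEM30A above ANO6 and ANO6 above ATP8B2 in every group. Next came PLSCR1 with 4.49, ATP11A with 4.33, XKR8 with 4.27 and ATP11B with 3.12 FPKM. Neighbours in this stretch did not separate in every group. ATP8B2 and PLSCR1 overlapped with anti-M8nAb at 24 h, PLSCR1 and ATP11A in both IgG groups, ATP11A and XKR8 in both anti-M8nAb groups, and XKR8 and ATP11B with IgG at 12 h. ATP8A1 had 1.69 FPKM and PLSCR3 0.639 FPKM, each apart from its neighbour in every group. TMEM30A had a higher FPKM than 90.7% of all genes tested and ANO6 than 83.1%, whereas PLSCR3 was above 22.2%. The place of PLSCR3 is uncertain, as it shares 76.4% of its exon sequence with a readthrough gene on the same strand. The length behind its FPKM takes in this shared part, where reads may have gone uncounted, so its level may be too low.

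**Figure D1:**
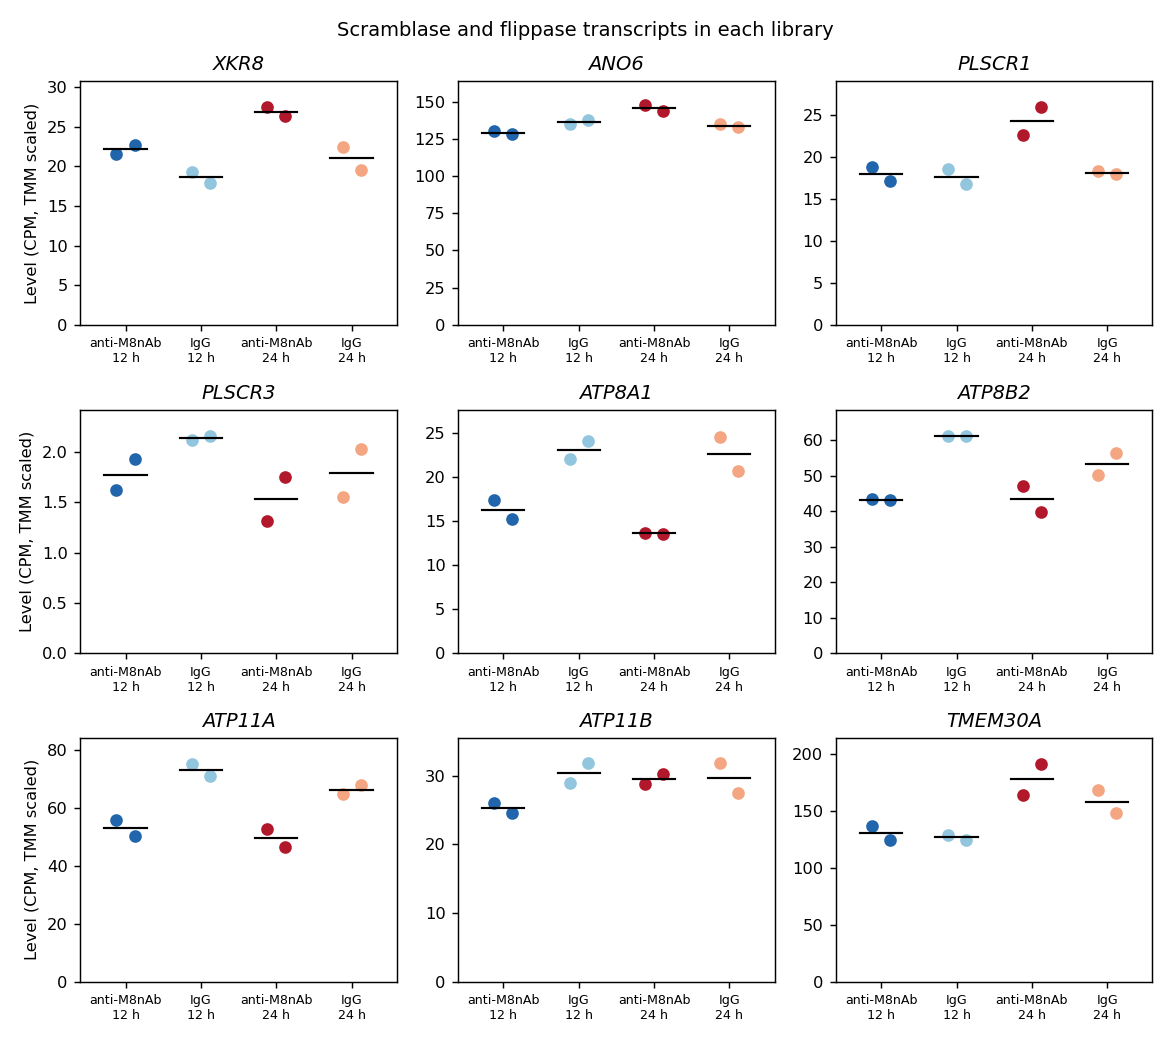
Level of each of the 9 genes in CPM after TMM scaling (y axis, from 0) with 1 point per library and a black line at the group mean, for anti-M8nAb 12 h (blue), IgG 12 h (light blue), anti-M8nAb 24 h (red) and IgG 24 h (light orange). ATP8A1, ATP8B2 and ATP11A lie below their IgG libraries at both times, and PLSCR1 stands out with anti-M8nAb at 24 h, with 22.6 and 25.9 CPM.

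The stretch just before the transcription start was read for the genes whose promoters RefSeq lists in GRCh38.p14, which were 7 of the 9, without entries for ATP11B and TMEM30A. In the 250 bases before each start site, both strands were searched for the GC box GGGCGG, the core of the interferon-stimulated response element GAAANNGAA, the AP-1 site TGANTCA and the TEAD site GGAATG, where neighbouring GC boxes can share a base. The windows of 4 genes are shown because PLSCR1 was the member with the largest rise and the other 3 fell at both times. Capitals mark the response element core in PLSCR1 and GC boxes on either strand in the others.
PLSCR1, chr3:146544608-146544857, minus strand: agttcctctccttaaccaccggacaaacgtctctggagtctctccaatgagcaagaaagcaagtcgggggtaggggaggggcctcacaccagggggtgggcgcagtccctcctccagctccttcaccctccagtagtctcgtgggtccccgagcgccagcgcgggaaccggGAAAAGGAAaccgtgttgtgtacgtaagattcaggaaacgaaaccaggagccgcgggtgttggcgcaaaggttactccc
ATP8A1, chr4:42657106-42657355, minus strand: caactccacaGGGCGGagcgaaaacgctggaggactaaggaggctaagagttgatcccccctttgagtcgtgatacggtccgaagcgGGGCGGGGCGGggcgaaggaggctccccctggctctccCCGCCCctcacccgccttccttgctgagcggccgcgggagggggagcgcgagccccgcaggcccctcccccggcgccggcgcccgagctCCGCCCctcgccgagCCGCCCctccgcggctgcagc
ATP11A, chr13:112689788-112690037, plus strand: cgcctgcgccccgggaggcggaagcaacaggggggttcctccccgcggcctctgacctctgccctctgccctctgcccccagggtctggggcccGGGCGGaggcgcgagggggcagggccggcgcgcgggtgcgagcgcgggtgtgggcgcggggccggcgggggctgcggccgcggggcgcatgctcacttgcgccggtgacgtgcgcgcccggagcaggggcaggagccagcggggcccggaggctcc
ATP8B2, chr1:154328548-154328797, plus strand: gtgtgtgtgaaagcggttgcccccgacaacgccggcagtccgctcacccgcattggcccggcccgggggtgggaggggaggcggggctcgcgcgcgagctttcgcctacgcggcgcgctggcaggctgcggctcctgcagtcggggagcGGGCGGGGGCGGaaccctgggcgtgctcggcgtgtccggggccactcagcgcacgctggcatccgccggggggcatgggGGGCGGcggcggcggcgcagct
PLSCR1 held the response element core 79 bases before its first start site, and was the 1 gene of the 7 with a match. This core lies in 6.88% of the 35116 promoter windows of the same length. GC boxes were found in 5 of the 7 genes, with 6 in ATP8A1, 3 in the second start site of ATP8B2 and 1 in ATP11A. They lie in 42.6% of all windows. The 7 genes had 9 windows, as PLSCR1 and ATP8B2 have a second start site, so a count of genes is not a share of windows. The first window of ATP8B2 held no GC box. XKR8 and PLSCR3, which did not fall at either time by the test, held 4 GC boxes each. None of the 7 genes searched held an AP-1 or a TEAD match in any of the 9 windows, where 6.57% and 11.9% of all windows do. The start site listed for ANO6, at 45292690, lies inside the gene, which begins at 45215987. The stretch before that beginning was not searched. A match of letters is a description of the sequence and not a bound site.

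Among the members, ATP8A1, ATP8B2 and ATP11A gave the largest differences at 12 h, and ATP8A1 the largest at 24 h. At 24 h PLSCR1 (0.42) and XKR8 (0.35) changed more in size than ATP8B2 (-0.30) and ATP11B (-0.01) on the log2 scale. ATP8A1, on chromosome 4 from 42408373 to 42657121, encodes a flippase of phosphatidylserine found on recycling endosomes and the plasma membrane. It had 17.4 and 15.2 CPM with anti-M8nAb at 12 h, against 22.1 and 24.1 CPM with IgG. At 24 h it had 13.7 and 13.5 CPM with anti-M8nAb, against 24.6 and 20.7 CPM with IgG. The anti-M8nAb libraries lay below the IgG libraries at both times. The log2 fold change was -0.50 at 12 h (SE 0.12, adjusted p = 0.000723) and -0.74 at 24 h (SE 0.12, adjusted p = 1.72e-06) by edgeR's quasi-likelihood test with Benjamini-Hochberg adjustment, the test behind all adjusted p-values given here. At 24 h this left 0.6 of the IgG level, and 79.4% of all genes tested had a smaller change. In bulk RNA, fewer cells of a kind that expresses the gene and less RNA per cell cannot be told apart.

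ATP11A, on chromosome 13 from 112690038 to 112887168, encodes a flippase of phosphatidylserine and phosphatidylethanolamine at the plasma membrane. Its libraries held 55.8 and 50.5 CPM with anti-M8nAb at 12 h, against 75.1 and 71.2 CPM with IgG, and 52.9 and 46.4 CPM with anti-M8nAb at 24 h, against 64.8 and 67.8 CPM with IgG. The groups were apart at each time. The log2 fold changes of -0.46 (SE 0.08, adjusted p = 5.27e-06) and -0.42 (SE 0.08, adjusted p = 1.89e-05) were close in size, with a difference of 0.04 (SE 0.11, adjusted p = 0.86). ATP11A passed the test in all 20 fits tried at both times.

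ATP8B2, on chromosome 1 from 154325525 to 154351304, belongs to the same family but is known to carry phosphatidylcholine rather than phosphatidylserine. It had 43.4 and 43.1 CPM with anti-M8nAb at 12 h, against 61.2 and 61.4 CPM with IgG, a gap far wider than the spread within either group. With anti-M8nAb at 24 h it had 47.1 and 39.7 CPM, against 50.2 and 56.5 CPM with IgG. Again the libraries did not overlap, though those of a group lay further apart. The log2 fold change came to -0.50 at 12 h (SE 0.08, adjusted p = 4.56e-06) and to -0.30 at 24 h (SE 0.08, adjusted p = 0.00312). The call at 24 h was lost without IgG 24 h replicate 2, where the log2 fold change was -0.21, and without anti-M8nAb 24 h replicate 2, where it was -0.18, and in the limma fit over all genes.

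ATP11B, on chromosome 3 from 182793503 to 182921629, encodes a P4-ATPase of recycling endosomes. It had 26 and 24.5 CPM with anti-M8nAb at 12 h, against 28.9 and 31.9 CPM with IgG, and fell by 0.27 on the log2 scale (SE 0.10, adjusted p = 0.0331). At 24 h it had 28.8 and 30.2 CPM with anti-M8nAb, against 31.8 and 27.5 CPM with IgG, or -0.01 on the log2 scale (SE 0.10, adjusted p = 0.966), with libraries that overlapped. The response at 24 h was 0.26 above that at 12 h (SE 0.14, adjusted p = 0.241), so a difference between the times did not pass. The call at 12 h was lost without IgG 12 h replicate 2 (-0.19) and without either of the anti-M8nAb libraries of 12 h (-0.31 and -0.22), with DESeq2, without the filter on low counts and in the 3 limma fits, so it held in 12 of 20 fits.

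TMEM30A, on chromosome 6 from 75252924 to 75284948, encodes the subunit that most P4-ATPases need. Its levels were 137 and 124 CPM with anti-M8nAb at 12 h, against 129 and 124 CPM with IgG, and 164 and 191 CPM with anti-M8nAb at 24 h, against 168 and 148 CPM with IgG. The libraries overlapped at both times. On the log2 scale it stood 0.05 above IgG (SE 0.07, adjusted p = 0.623) at 12 h and 0.17 above it (SE 0.07, adjusted p = 0.0288) at 24 h. This call held in 10 of 20 fits. Among the losses were those with DESeq2, with each time alone, without the filter on low counts, in the 3 limma fits, without anti-M8nAb 24 h replicate 2 (0.06), without IgG 24 h replicate 2 (0.08) and without either IgG library of 12 h. The clearer change of TMEM30A was with time in control cells, where IgG 24 h was above IgG 12 h by 0.32 on the log2 scale (SE 0.07, adjusted p = 0.00068) and the libraries were apart.

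Among the scramblase genes, XKR8 on chromosome 1 from 27959588 to 27968093 encodes the caspase-activated scramblase of the plasma membrane. It had 21.6 and 22.7 CPM with anti-M8nAb at 12 h, against 19.3 and 17.9 CPM with IgG, and 27.5 and 26.3 CPM with anti-M8nAb at 24 h, against 22.5 and 19.6 CPM with IgG. The anti-M8nAb libraries were above the IgG libraries at both times. The log2 fold change was 0.25 (SE 0.11, adjusted p = 0.0718) at 12 h, which did not pass, and 0.35 (SE 0.11, adjusted p = 0.00634) at 24 h, with a difference between the times of 0.10 (adjusted p = 0.759). At 12 h the gene passed without either IgG library of 24 h (0.26 for each), among protein-coding genes alone (0.27) and with an offset for the GC trend (0.36), which made 4 of 20 fits. At 24 h it no longer passed without IgG 24 h replicate 2 (0.25) or without anti-M8nAb 24 h replicate 1 (0.32), nor in the 3 limma fits on FPKM (0.22 to 0.26), so it held in 15 of 20 fits.

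PLSCR1, on chromosome 3 from 146515180 to 146544856, encodes a palmitoylated membrane protein that interferon induces and whose own part in scrambling is disputed. It had 18.8 and 17.1 CPM with anti-M8nAb at 12 h, against 18.5 and 16.7 CPM with IgG, and these libraries overlapped. At 24 h it had 22.6 and 25.9 CPM with anti-M8nAb, against 18.3 and 17.9 CPM with IgG. The log2 fold change was 0.03 (SE 0.12, adjusted p = 0.868) at 12 h and 0.42 (SE 0.11, adjusted p = 0.00181) at 24 h. The difference of 0.39 (SE 0.16) had an unadjusted p of 0.0188 and an adjusted p of 0.108. Without anti-M8nAb 24 h replicate 2 the log2 fold change at 24 h was 0.32 and did not pass, nor did it in the limma fit over all genes (0.28). Of 12 genes that interferon induces, 10 were tested. At 24 h edgeR called 0 of them higher and 2 lower, DESeq2 and limma called 0 higher, and at an unadjusted p under 0.05 there were 0 higher and 3 lower. Their median was -0.35 on the log2 scale, and their summed level was 109 to 114 CPM with anti-M8nAb, against 124 to 125 CPM with IgG.

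ANO6, on chromosome 12 from 45215987 to 45482280, encodes the calcium-activated scramblase TMEM16F, whose loss causes the bleeding disorder Scott syndrome. Its libraries held 130 and 128 CPM with anti-M8nAb at 12 h, against 135 and 138 CPM with IgG, and 148 and 144 CPM with anti-M8nAb at 24 h, against 135 and 133 CPM with IgG. Both anti-M8nAb libraries were thus below the IgG libraries at 12 h and above them at 24 h. The log2 fold changes of -0.07 (SE 0.06, adjusted p = 0.346) and 0.12 (SE 0.06, adjusted p = 0.0931) did not pass, nor did their difference of 0.19 (SE 0.08, adjusted p = 0.119). The value at 24 h passed among protein-coding genes alone (0.14) and with an offset for the GC trend (0.19, where the median of all genes moved to 0.102).

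PLSCR3, on chromosome 17 from 7389727 to 7394842, encodes a relative of PLSCR1 found in mitochondria. It had the lowest level as counted, with 1.62 and 1.93 CPM with anti-M8nAb at 12 h, against 2.12 and 2.16 CPM with IgG. At 24 h it had 1.31 and 1.75 CPM with anti-M8nAb, against 1.55 and 2.03 CPM with IgG. These rest on 27 to 47 counts per library. The log2 fold changes of -0.27 (SE 0.32, adjusted p = 0.563) and -0.22 (SE 0.33, adjusted p = 0.621) had errors wider than the values, so no difference was detectable with these counts. The gene shares 76.4% of its exon sequence with a readthrough gene on the same strand, TMEM256-PLSCR3, which had 0 to 4 counts. Reads in the shared part may have gone uncounted, so the level of PLSCR3 is uncertain and may be too low.

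**Figure D2:**
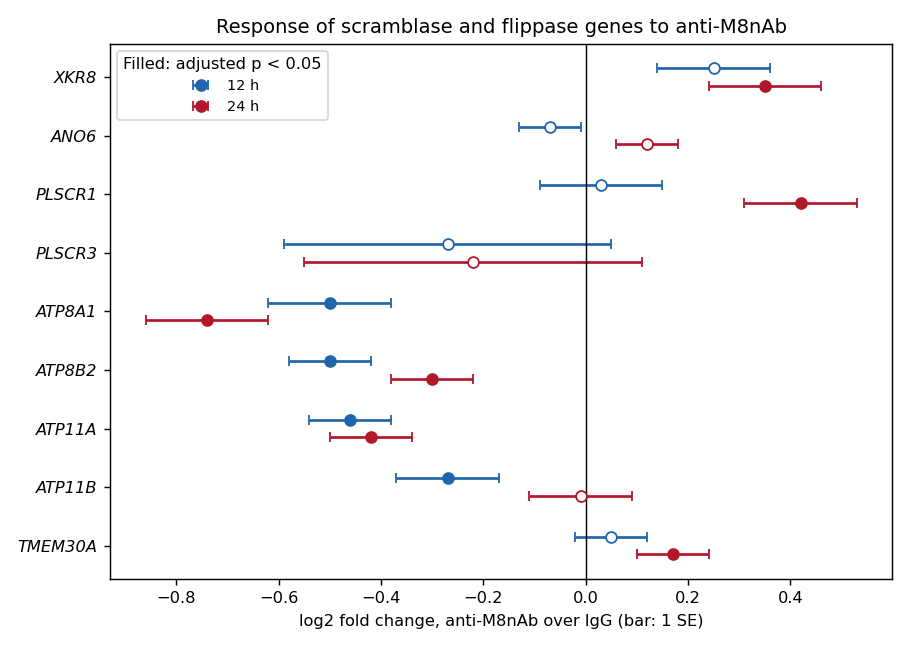
Log2 fold change of anti-M8nAb over IgG (x axis) for each of the 9 genes in blue for 12 h and in red for 24 h, with bars of 1 SE and filled points for an adjusted p below 0.05. All 4 P4-ATPase genes are filled and left of 0 at 12 h, and XKR8, PLSCR1 and TMEM30A are filled and right of 0 at 24 h.

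Counted together, 4 of the 9 genes were lower and 0 were higher at 12 h, with a median log2 fold change of -0.27. Among all genes tested at 12 h, 16.4% were called lower and 15.8% higher, with a median of 0.001. No member was called higher at 12 h by edgeR over all 20165 genes and 8 libraries, by DESeq2 or by limma, although XKR8 passed in 4 other edgeR fits, and 5 of the 9 had an unadjusted p under 0.05, which were the 4 called and, as the 1 on the higher side, XKR8. At 24 h, 3 genes were higher and 3 lower, with a median of -0.01, where 21.2% of all genes were called higher and 21.3% lower, with a median of 0.003. The count of 6 at 24 h came to 3 without IgG 24 h replicate 2, where XKR8, TMEM30A and ATP8B2 were lost, and to 3 without anti-M8nAb 24 h replicate 2, where PLSCR1, TMEM30A and ATP8B2 were lost. ATP8A1 and ATP11A were kept in both.

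A difference in response between the times passed edgeR's test in 0 of the 9 genes, against 12.3% of all genes in either direction. At an unadjusted p under 0.05 there were 2, ANO6 and PLSCR1, and DESeq2 and limma called 0. A member that passed at 1 time and not at the other is therefore not shown to have responded differently. Time alone, IgG 24 h over IgG 12 h, moved 1 member, TMEM30A, against 13.7% of all genes. ATP8B2 had a log2 fold change with time in IgG cells of -0.20 (adjusted p = 0.0963) and ATP11A one of -0.14 (adjusted p = 0.224), the same side as their values with anti-M8nAb. The IgG libraries enter all of these comparisons, so the values are not independent.

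Summed by role, as a description with no test, the levels per length parted in the ATPases. The 4 P4-ATPase genes came to 13.3 ± 0.443 FPKM with anti-M8nAb at 12 h, against 18.9 ± 0.102 FPKM with IgG (SD, n = 2 libraries each), and to 13.4 ± 0.905 FPKM with anti-M8nAb at 24 h, against 17.7 ± 0.242 FPKM with IgG. ATP8B2, which carries another lipid, was the largest part of these sums. The 4 scramblase genes came to 23 ± 0.0514 FPKM with anti-M8nAb at 12 h, against 24.1 ± 0.264 FPKM with IgG, and to 27.2 ± 0.137 FPKM with anti-M8nAb at 24 h, against 25 ± 0.449 FPKM with IgG. ANO6 made up most of that sum. The FPKM carry no TMM factor. With limma on log2(FPKM + 1) the median log2 fold change of tested genes was -0.045 at 12 h and -0.068 at 24 h. The part of this shift in the sums was not tested. The ratio of TMEM30A to the summed ATPases was 1.73 ± 0.0568 with anti-M8nAb at 12 h, against 1.23 ± 0.0458 with IgG, and 2.38 ± 0.412 with anti-M8nAb at 24 h, against 1.69 ± 0.166 with IgG. Within the ATPases the shares kept close, as ATP11A held 25.4 to 28.9% of the sum in every library, while ATP8A1 held 8.54 and 9.24% with anti-M8nAb at 24 h, against 13 and 10.8% with IgG.

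**Figure D3:**
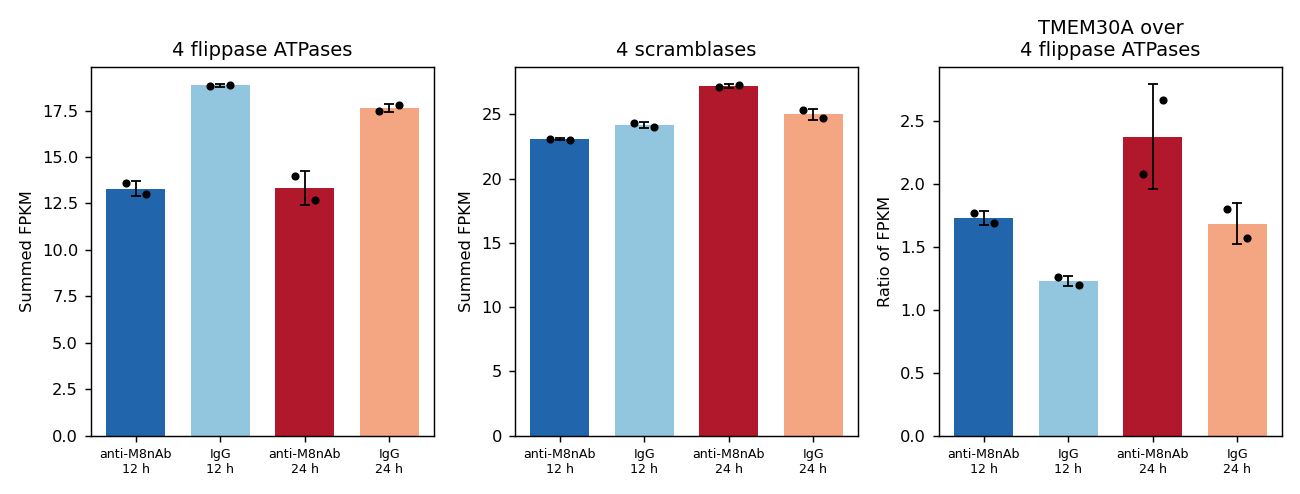
Summed FPKM of the 4 P4-ATPase genes (left), summed FPKM of the 4 scramblase genes (middle) and the ratio of TMEM30A to the summed P4-ATPase FPKM (right), with bars at the group mean from 0, error bars of 1 SD over 2 libraries and 1 point per library. The P4-ATPase sums of the anti-M8nAb libraries, 12.7 to 14 FPKM, lie below those of the IgG libraries, 17.5 to 18.9 FPKM.

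The families around these genes were looked at through lists of the other members. Of 10 other P4-ATPase and CDC50 genes analysed here, 4 were called at 12 h, 1 on the higher side and 3 on the lower, where 15.8% and 16.4% of all genes were called. At 24 h there were 2 on the higher side and 2 on the lower, where 21.2% and 21.3% of all genes were called, with medians of -0.06 and -0.11. The higher ones at 24 h were ATP8A2 and ATP8B1, and the lower ones ATP8B4 and ATP10B. ATP8B4 fell by 1.27 at 12 h (adjusted p = 0.00755) and by 1.93 at 24 h (adjusted p = 0.000139) on the log2 scale, but on only 10 to 59 counts per library. ATP8B1, a flippase of bile canaliculi, rose, with 0.44 (adjusted p = 0.0435) and 0.52 (adjusted p = 0.0117), and ATP10B, a lysosomal glucosylceramide flippase, had 0.04 (adjusted p = 0.942) at 12 h and -0.92 (adjusted p = 0.0104) at 24 h.

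Among 7 tested XK-related genes, edgeR called 1 higher and 2 lower after 12 h, and 1 in each direction after 24 h, beside 15.8% and 16.4% of all genes at 12 h and 21.2% and 21.3% at 24 h. XKR4, another caspase-activated scramblase, had 2.7 and 3.04 CPM with anti-M8nAb at 12 h, against 1.52 and 1.56 CPM with IgG, and 4.23 and 3.17 CPM with anti-M8nAb at 24 h, against 1.29 and 1.23 CPM with IgG. Its log2 fold changes of 0.89 at 12 h (adjusted p = 0.0164) and 1.55 at 24 h (adjusted p = 2.8e-05) rest on 28 to 87 counts per library. XKRX had -2.28 at 24 h (adjusted p = 0.0115) on 1 to 18 counts per library. In the TMEM16 family other than ANO6, edgeR called 2 of 8 tested genes lower at 12 h and 4 at 24 h, beside 16.4% and 21.3% of all genes, with medians of -0.16 and -0.41. On the higher side edgeR, DESeq2 and limma called 0, and at an unadjusted p under 0.05 there was 1 such gene at 12 h and 0 at 24 h. ANO5 fell by 0.51 (adjusted p = 0.00264), ANO9 by 0.66 (adjusted p = 0.00261) and ANO7 by 0.92 (adjusted p = 0.0169) at 24 h. Of the other PLSCR genes 1 of 3 passed the filter and edgeR, DESeq2 and limma called 0 at either time, as did an unadjusted p under 0.05.

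The partner proteins of the scramblases moved in both directions. NPTN and BSG encode the chaperones that carry XKR8 to the surface. NPTN had 84.8 and 83.9 CPM with anti-M8nAb at 12 h, against 104 and 102 CPM with IgG, and 73.9 and 70.7 CPM with anti-M8nAb at 24 h, against 101 and 102 CPM with IgG. It fell by 0.28 at 12 h (adjusted p = 0.00047) and by 0.49 at 24 h (adjusted p = 2.57e-08) on the log2 scale, with libraries apart at both times. BSG had 657 and 675 CPM with anti-M8nAb at 12 h, against 608 and 626 CPM with IgG, and 686 and 699 CPM with anti-M8nAb at 24 h, against 607 and 647 CPM with IgG. Its log2 fold change of 0.11 at 12 h did not pass (adjusted p = 0.0607), and that of 0.14 at 24 h did (adjusted p = 0.00972). VPS13A, a lipid transfer protein that partners XK, fell by 0.31 at 12 h (adjusted p = 0.00151) and by 0.25 at 24 h (adjusted p = 0.00673). Of the 3 genes, 2 were thus called at 12 h, both lower, and 3 at 24 h, of which 1 was higher, beside 16.4% of all genes on the lower side at 12 h and 21.3% at 24 h, with medians of -0.28 and -0.25.

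Of 5 genes of phosphatidylserine synthesis and transport, 4 were called at 12 h, of which 3 were lower, and 1 at 24 h, which was lower, beside 15.8% of all genes called higher and 16.4% lower after 12 h, and 21.2% and 21.3% at 24 h. On the higher side at 24 h edgeR, DESeq2, limma and an unadjusted p under 0.05 all gave 0. OSBPL5, which encodes a carrier of phosphatidylserine from the endoplasmic reticulum to the plasma membrane, had 5.1 and 5.3 CPM with anti-M8nAb at 12 h, against 10.1 and 11 CPM with IgG, and 6.57 and 7.45 CPM with anti-M8nAb at 24 h, against 11.7 and 13.7 CPM with IgG. It fell by 1.02 on the log2 scale at 12 h (adjusted p = 2.41e-06) and by 0.86 at 24 h (adjusted p = 1.2e-05). PTDSS1, which makes phosphatidylserine from phosphatidylcholine, fell by 0.23 at 12 h (adjusted p = 0.00544) and had -0.08 at 24 h (adjusted p = 0.342). PISD, which decarboxylates phosphatidylserine in mitochondria, rose by 0.33 at 12 h (adjusted p = 0.000332) and had 0.03 at 24 h (adjusted p = 0.787), with a difference of -0.31 (adjusted p = 0.042).

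**Figure D4:**
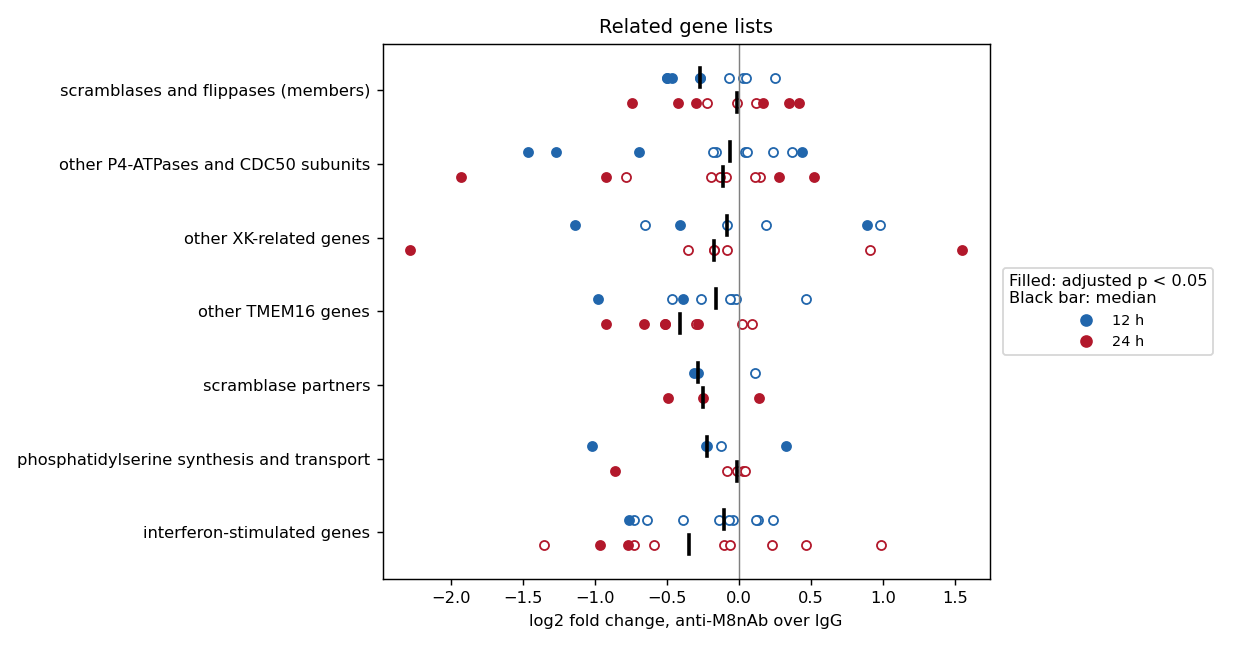
Log2 fold change of anti-M8nAb over IgG on the x axis for the tested genes of 7 lists, in blue for 12 h and in red for 24 h, with filled points for an adjusted p below 0.05 and black bars at medians. The 9 scramblase and flippase genes have medians of -0.27 and -0.01, and the interferon-stimulated genes -0.11 and -0.35.

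The genes whose pattern over the 8 libraries was most like that of the 3 members with the smallest adjusted p were sought among 9844 protein-coding genes with a mean of at least 10 CPM, by Pearson correlation of log2 CPM, as a description in which the libraries share treatment and time. For ATP8A1 they were EMC9 with 0.9908, KIF11 with 0.9883 and CBX1 with 0.9866. For ATP11A they were MRPL24 with 0.9895, NYNRIN with 0.9852 and PITPNM1 with 0.9811. For ATP8B2 they were WDR81 with 0.9902, KIF26A with 0.9850 and NMRAL1 with 0.9810. PITPNM1 encodes a phosphatidylinositol transfer protein and KIF11 a mitotic kinesin.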

How the data were processed

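RNA was sequenced from 8 libraries in 4 groups. The authors used Trimmomatic for trimming, the 2-pass mode of STAR for alignment (GRCh38.p14), Picard to remove duplicates and HTSeq to count over Ensembl genes. Removing duplicates lowers the counts of abundant genes most. The deposited count table holds raw counts per gene, and the deposited FPKM table gives those counts per length and scaled to library size, computed by the authors. Each table has 4 further columns that are not used here, and 1005 lines without a gene name, holding 53.3 to 54.1% of all counts, were left out. FPKM lengths equalled the merged exons of GENCODE release 44 to under 1 base for 98.5% of the genes checked. Whether the counts take in both strands was not tested.

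After a filter within groups, counts took TMM factors and were modelled in edgeR 4.0.16 (R 4.3.3), with 1 mean per group over all 8 libraries. Comparisons used the two-sided quasi-likelihood F test, with Benjamini-Hochberg adjustment over 20165 genes and a call at an adjusted p under 0.05. The fit was tested on simulated data. Alternatives were DESeq2 1.42.0, its size factors, each time alone, other filters, limma 3.58.1 on log2 FPKM, protein-coding genes alone, a GC offset, a fold threshold, a replicate block and each library left out.

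The members and lists were chosen with earlier results of these data known. All 9 members are named. From family lists, called genes may be named, and up to 3 per list with the smallest adjusted p at 24 h have values. The results of some genes are not reported here. Other lists are given mainly as counts, medians and sums, with some members named. Promoter sequences are from RefSeq (GRCh38.p14).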

Additional observations from a re-analysis of the deposited data

Results flagged for a closer look

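The log2 fold change of anti-M8nAb over IgG differed between 24 h and 12 h in PISD by edgeR's test of the difference itself. The value at 24 h minus that at 12 h was -0.31 (adjusted p = 0.042). PISD had 59.3 and 60.3 CPM with anti-M8nAb at 24 h, against 58.7 and 58.6 CPM with IgG, and 65.5 and 65.7 CPM with anti-M8nAb at 12 h, against 51.4 and 52.7 CPM with IgG. Between IgG 24 h and IgG 12 h it had a log2 fold change of 0.17 (adjusted p = 0.115). That value enters the difference, and its part in it was not tested.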

How the results depend on the processing

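No value of a member that was called changed its direction under any alternative. Of the log2 fold changes of members recomputed, 624 kept their side of the threshold, 9 came to pass it and 32 no longer passed. Members called at 12 h numbered 4, against 2 with limma on log2(FPKM + 1) without a filter and 0 where the fold change also had to reach 1 on the log2 scale, and 3 to 5 when each library was left out. At 24 h they numbered 6, against 2 and 0 under the same settings, and 3 to 6 with each library left out. For the difference between the times the count was 0, and 1 (ANO6) with the offset for the GC trend, and it stayed at 0 with each library left out. For time in IgG cells the count was 1, against 0 in each of the 3 limma fits and with the fold threshold, and 3 with the GC offset, which added ATP11A and ATP8B2. That offset moved the median log2 fold change of all genes at 24 h to 0.102, against 0.003 without it. With the replicate block the counts were 4, 6, 0 and 1, and no call changed. Same-numbered libraries did not deviate together, with correlations of -0.0372 to 0.0268, so no large shift shared by replicate number was seen. These correlations, which take in counting error, cannot tell whether same-numbered libraries were grown together. The causes of these changes were not tested. With 2 libraries a group the errors rest on a spread shared by all groups, and PLSCR3, with 27 to 47 counts, allows no firm statement.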
